A study of Homo sapiens with 8 samples.

Results

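The genes described here are 6 components of the machinery by which a cell detects DNA outside the nucleus: STING1, CGAS, IFI16, AIM2, ZBP1 and TREX1. They were chosen by symbol, and all 6 were found in a table of 60664 genes. RNA was sequenced from THP-1 cells, a human acute monocytic leukemia line. Parental THP-1 cells and DAC-resistant THP-1 cells each received DMSO or 1 µM decitabine (DAC) over 6 days, and the 4 groups had 2 replicates each, 8 libraries in all. DAC is a cytidine analogue that is built into DNA and lowers DNA methylation. The resistant cells had been selected from the same line with repeated pulses of DAC at a high inhibitory dose and then grown without drug, so they are a single selected population and not a set of independent resistant lines. Both cell types of the DMSO groups carried the vehicle, and the resistant cells of both groups had met DAC before. The comparisons ask what DAC did to these transcripts in each cell type, and how resistant cells differed from parental cells with and without the drug.

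cGAS binds double-stranded DNA in the cytosol and makes the cyclic dinucleotide cGAMP, which binds STING on the endoplasmic reticulum. STING then moves to the Golgi and recruits the kinase TBK1, which phosphorylates the transcription factor IRF3 and so drives transcription of interferon β. IFI16 and AIM2 are DNA-binding proteins of the PYHIN family, of which AIM2 builds an inflammasome with the adaptor ASC and caspase-1. ZBP1 binds left-handed Z-form nucleic acid and can start necroptosis through RIPK3 and MLKL, and the exonuclease TREX1 removes cytosolic DNA before it is sensed. In monocytes IFI16, AIM2 and ZBP1 are known as interferon-inducible genes.

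Values are FPKM, the reads on a gene divided by its length and by the total of the library. The totals behind the values ran from 27480502 to 31916835 reads per library. A gene was tested where it had at least 1 FPKM in at least 2 libraries, which 14899 genes and 4 of the 6 members did: STING1, CGAS, IFI16 and AIM2. ZBP1 was above 0 but under that filter and TREX1 was listed at 0 in all 8 libraries. Differences are log2 fold changes of FPKM + 1 from limma, and a gene was called where its unadjusted p was at most 0.01 and its log2 fold change at least 1 in size. The labels call the 2 samples of a group biological replicates and do not say whether they were separate cultures, so the p-values measure the spread between these samples. Of 10 markers of monocytic leukemia cells, 8 to 10 had a mean of at least 1 FPKM in each group, with CD68 below it in both parental DMSO and resistant DAC cells, CD14 in resistant DMSO cells and MPO in resistant DAC cells. The summed level of those markers was 489 to 515 FPKM in parental DMSO cells, 528 to 539 in parental DAC cells, 363 to 373 in resistant DMSO cells and 340 to 360 in resistant DAC cells.

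The promoter sequences of IFI16 and AIM2 are shown because these members carried the response to DAC. RefSeq windows of 300 bases (250 before the transcription start and 50 after it, GRCh38.p14) were found for 3 of the 6 members, IFI16, AIM2 and TREX1. They were searched on both strands for the core of the interferon-stimulated response element, GAAANNGAA. The core lay in 1 of the 2 IFI16 windows and in the AIM2 window and not in the TREX1 window, 2 of the 4 member windows, where 8.11% of all 35116 windows held it. In the sequences, 5′ to 3′ on the strand of the gene, capitals mark the core, which reads on the opposite strand in both.
IFI16, chr1:159009657-159009956, plus strand: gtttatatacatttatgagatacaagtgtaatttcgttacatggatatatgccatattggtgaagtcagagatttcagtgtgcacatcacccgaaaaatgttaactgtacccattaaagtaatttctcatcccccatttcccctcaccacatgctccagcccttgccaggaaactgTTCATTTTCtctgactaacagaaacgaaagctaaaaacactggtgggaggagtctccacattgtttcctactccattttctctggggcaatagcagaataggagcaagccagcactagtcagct
AIM2, chr1:159076717-159077016, minus strand: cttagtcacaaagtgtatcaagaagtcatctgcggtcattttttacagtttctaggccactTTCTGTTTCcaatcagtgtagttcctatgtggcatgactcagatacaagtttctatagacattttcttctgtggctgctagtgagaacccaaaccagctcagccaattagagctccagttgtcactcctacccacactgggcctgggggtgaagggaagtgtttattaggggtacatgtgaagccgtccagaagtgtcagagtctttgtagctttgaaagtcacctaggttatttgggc
The core began 74 bases before the start in IFI16 and 189 bases before it in AIM2. CG pairs, the sites of DNA methylation that DAC affects, were few in all 4. The IFI16 window above held 3 CG pairs, its other window (chr1:159008741-159009040) held 1, the AIM2 window 2 and the TREX1 window (chr3:48465580-48465879, plus strand) 3, where the median over all windows was 14. A window with 3 or fewer CG pairs was found for 24.5% of all windows. Such matches describe letters, and neither binding nor methylation was measured in these data.

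STING1 (ENSG00000184584, chr5:139475533-139482935 on the minus strand), the adaptor itself, was the most abundant member in DMSO and was lower in resistant cells. Its level was 56.1 and 57.0 FPKM in the 2 parental DMSO libraries and 48.7 and 48.0 FPKM in parental DAC cells. In resistant cells it was 25.3 and 25.1 FPKM with DMSO and 20.9 and 20.5 FPKM with DAC. The 4 groups did not overlap and stood in that order, every resistant library below every parental one. These values rest on 3014 to 8532 reads per library.

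In DMSO the mean fell from 56.5 ± 0.61 (SD, n = 2) to 25.2 ± 0.16 FPKM from parental to resistant cells, a level 2.24-fold lower (log2 fold change −1.14 ± 0.026, SE; limma, adjusted p = 6.07e-07). With DAC the resistant cells had a level 2.33-fold lower (log2 fold change −1.18, adjusted p = 2.19e-07). STING1 was the only member called lower in DMSO. Of all genes tested, 4.28% were called lower and 4.45% higher in resistant against parental cells in DMSO, and with DAC 9.17% were called lower and 5.29% higher. In those comparisons 2 of the 6 members were called each time: STING1 lower and IFI16 higher in DMSO, and both lower with DAC.

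The effect of DAC on STING1 itself was small and in the same direction in both cell types. It fell by 0.22 on the log2 scale in parental cells (adjusted p = 0.000439) and by 0.27 in resistant cells (adjusted p = 0.00254). Neither reached the fold needed for a call. The difference between the DAC effects was −0.05 (95% confidence interval −0.136 to 0.039, adjusted p = 0.309), and it was 0.001 when values were rescaled to TPM and 0.058 with upper-quartile scaling, so its sign depends on the scaling. In a bulk sample, fewer cells that express a gene and less RNA per cell cannot be told apart.

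CGAS (ENSG00000164430, chr6:73413515-73452297, minus strand), which encodes the sensor upstream of STING, followed the same split between cell types but by less. Its level was 16.0 and 15.0 FPKM in parental DMSO cells, 14.6 and 14.9 in parental DAC cells, 9.54 and 11.2 in resistant DMSO cells and 9.64 and 9.36 in resistant DAC cells. Every resistant library was below every parental one, while the resistant groups overlapped with and without DAC. Of its 4174 exon bases, 180 lie opposite exons of another gene.

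CGAS was 1.50-fold lower in resistant than in parental cells in DMSO (log2 fold change −0.54 ± 0.071, SE; adjusted p = 0.00073) and 1.56-fold lower with DAC (−0.59, adjusted p = 0.000363). Both differences were larger than the spread between replicates but under the fold of a call. No effect of DAC on CGAS was detectable, with a log2 fold change of −0.07 in parental cells (95% confidence interval −0.235 to 0.104, adjusted p = 0.462) and −0.11 in resistant cells (−0.28 to 0.06, adjusted p = 0.383). The difference between those effects was −0.05 (−0.285 to 0.195, adjusted p = 0.741), and it was 0.005 after rescaling to TPM and 0.057 with upper-quartile scaling.

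**Figure D1:**
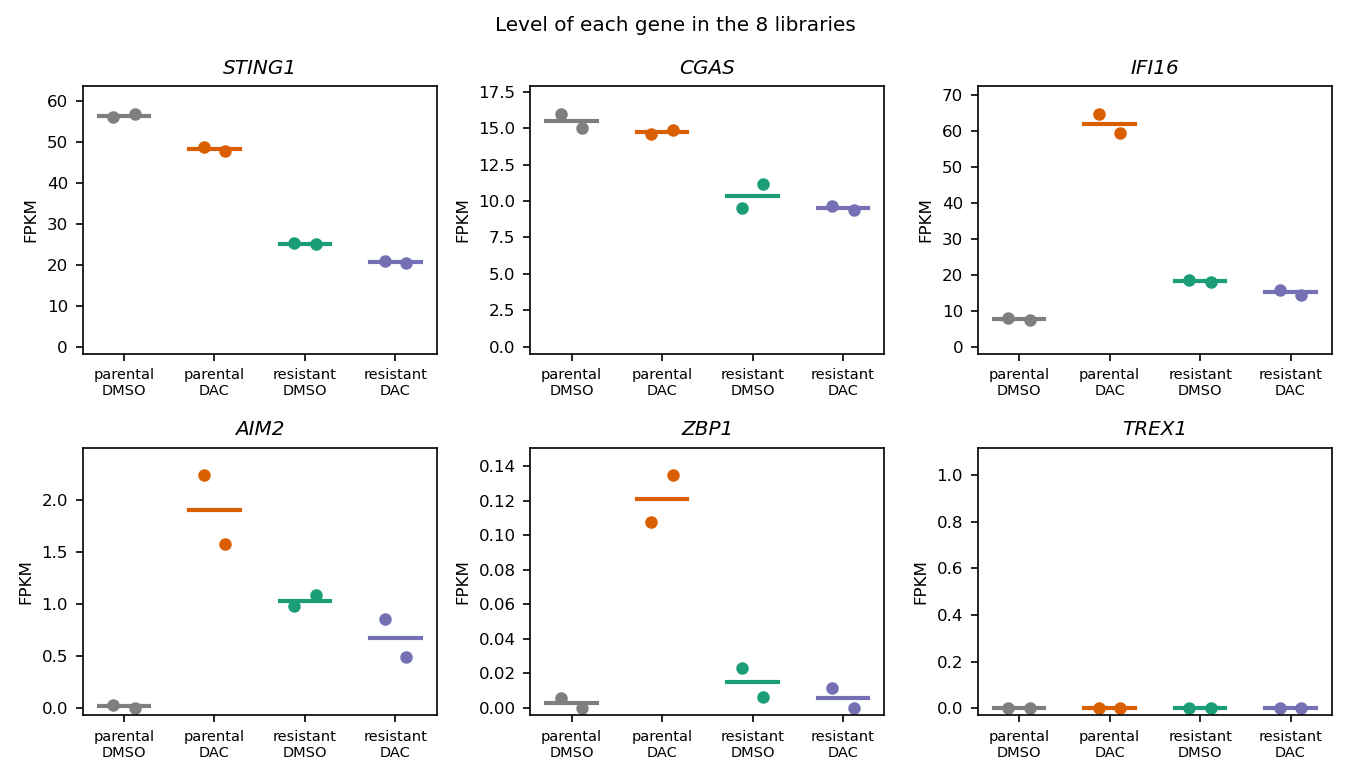
FPKM of each of the 6 members in the 4 groups, on a linear axis of its own for each gene. Points are the 2 libraries of a group and lines their mean. STING1 and CGAS are lower in every resistant library than in every parental one, IFI16, AIM2 and ZBP1 peak in parental cells with DAC, and TREX1 is at 0 throughout.

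IFI16 (ENSG00000163565, chr1:158999968-159055155, plus strand), a PYHIN sensor of nuclear and cytosolic DNA, showed the largest change of the 5 fitted members on the log2(FPKM + 1) scale, while AIM2 and ZBP1, on few reads, had larger ratios of reads. Its level was 7.99 and 7.53 FPKM in parental DMSO cells and 64.9 and 59.5 in parental DAC cells, on 1209 to 9440 reads per library over the 8 libraries. In resistant cells it was 18.6 and 18.0 FPKM with DMSO and 15.8 and 14.4 with DAC. No groups overlapped, and the order from high to low was parental DAC, resistant DMSO, resistant DAC and parental DMSO.

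DAC raised IFI16 in parental cells 8.01-fold, from 7.76 ± 0.32 to 62.2 ± 3.78 FPKM (SD, n = 2; log2 fold change 2.85 ± 0.060, SE; adjusted p = 2.53e-07). With DAC, IFI16 passed STING1 in parental cells on the per-length scale, 62.2 against 48.3 FPKM, where without it IFI16 stood at 7.76 and STING1 at 56.5 FPKM. In resistant cells DAC did not raise it, and the log2 fold change of −0.26 (95% confidence interval −0.409 to −0.118, adjusted p = 0.0412) was negative and under the fold of a call. The difference between the DAC effects was −3.11 ± 0.085 (SE, adjusted p = 1.47e-06). Of all genes tested, 7.16% were called lower and 3.46% higher in that difference, and 2 of the 6 members, IFI16 and AIM2, were called lower in it. AIM2 passed the filter only through parental DAC cells, where it was high, so its call adds no support to that count.

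Resistant cells in DMSO already held 2.36-fold more IFI16 than parental cells in DMSO (log2 fold change 1.14, adjusted p = 1.35e-05). With DAC they held 4.12-fold less than parental cells (log2 fold change −1.97, adjusted p = 7.73e-07). The direction of the difference between cell types therefore turned with the drug.

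AIM2 (ENSG00000163568, chr1:159061599-159187843, minus strand), which starts the AIM2 inflammasome, was near the limit of detection in untreated parental cells. Its level was 0.034 and 0 FPKM in parental DMSO cells, on 2 and 0 reads, and 2.23 and 1.57 FPKM in parental DAC cells, on 115 and 81 reads. Resistant DMSO cells had 0.98 and 1.08 FPKM, on 58 and 61 reads, and resistant DAC cells 0.85 and 0.49 FPKM, on 51 and 28 reads. Every library outside the parental DMSO group was above both parental DMSO libraries. The values fit a counted length of 1874 bases, the smallest that gives whole reads in every library, where GENCODE v44 lists 6426 exon bases, so the reads and the FPKM rest on a shorter gene model.

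By reads, parental cells held 111-fold more AIM2 with DAC than with DMSO (196 against 2 reads, 95% counting interval 30.2 to 920), an exact interval that covers counting error only. On the log2(FPKM + 1) scale, which understates changes of low genes, the difference was 1.50 ± 0.156 (SE, adjusted p = 0.000258). Together with IFI16 this made 2 of 6 members called higher with DAC in parental cells and 0 called lower, where 6.66% of all genes tested were called higher and 2.64% lower. Outside parental DAC cells AIM2 reached 1 FPKM only in the second resistant DMSO library, at 1.08 FPKM. It therefore passed the filter only through the group where it was high, and its calls among these counts support nothing about the members. In resistant cells the fitted change with DAC was −0.29 (95% confidence interval −0.665 to 0.084, adjusted p = 0.296), and the difference between the DAC effects was −1.80 (adjusted p = 0.000789).

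Resistant cells in DMSO had 59.9-fold the AIM2 reads of parental cells in DMSO (119 against 2 reads, 16.2 to 500). The fitted log2 fold change there was 0.998 (adjusted p = 0.00169), just under the fold of a call. It was 3.29 with a pseudocount of 0.1, 2.14 after rescaling to TPM and 5.74 with voom on recovered reads, all of which were called, as were 1.02 without parental DMSO replicate 1 and 1.04 without resistant DMSO replicate 1. With DAC, AIM2 was lower in resistant than in parental cells by 0.80 on the log2 scale (adjusted p = 0.0037). This too was under the fold of a call, and called at −1.40 with a pseudocount of 0.1, −1.10 after rescaling to TPM and −1.52 with voom.

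ZBP1 (ENSG00000124256, chr20:57603846-57620576, minus strand), the Z-form nucleic acid sensor, was under the expression filter in all groups. It had 1 and 0 reads in parental DMSO cells, 16 and 20 in parental DAC cells, 4 and 1 in resistant DMSO cells and 2 and 0 in resistant DAC cells. The highest level, in the second parental DAC library, was 0.135 FPKM. Both parental DAC libraries were above all 6 others, among which the groups overlapped or were apart by a few reads.

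By reads, ZBP1 was 40.6-fold higher with DAC than with DMSO in parental cells (36 against 1 reads, 95% counting interval 6.84 to 1650) and 20.5-fold higher in parental than in resistant cells with DAC (36 against 2 reads, 5.27 to 176). Resistant against parental cells in DMSO gave a ratio of 5.03 with an interval of 0.563 to 238, so no difference was detectable at this depth. In the fit without the filter the log2 fold change with DAC in parental cells was 0.16 (adjusted p = 0.00292) on a scale where a pseudocount of 1 outweighs the values. It was 1.10 with a pseudocount of 0.1 and 4.58 with voom, both called. The difference between the DAC effects was −0.17 (adjusted p = 0.0109) and was called at −1.22 with a pseudocount of 0.1 and at −5.81 with voom.

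In resistant cells 0 of the 6 members were called with DAC in either direction by limma, where 0.114% of all genes tested were called higher and 0.121% lower. At an unadjusted p under 0.05, which 27% of all genes tested had, there were 2, STING1 and IFI16, both lower, and voom on recovered reads also called 0. The 3 members that rose by reads or by call in parental cells, IFI16, AIM2 and ZBP1, had negative fitted changes in resistant cells, of −0.26, −0.29 and −0.01 on the log2 scale. The comparisons of DAC in parental cells and of resistant with parental cells in DMSO share the parental DMSO libraries, so a low value there enters both.

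**Figure D2:**
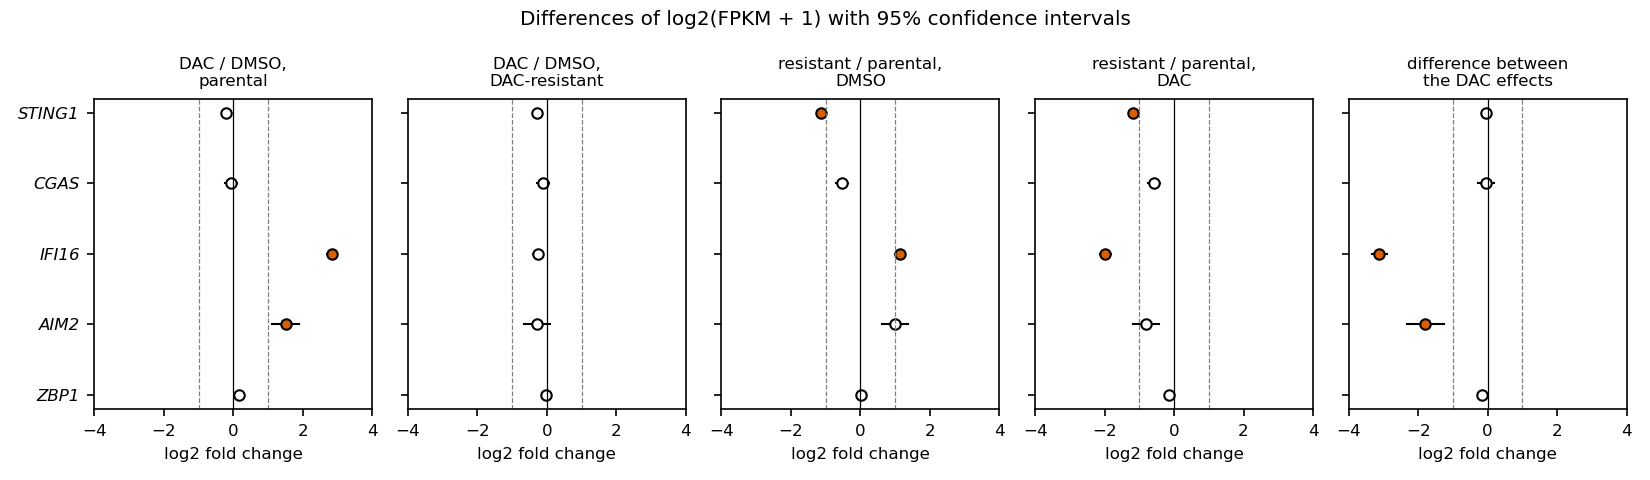
Log2 fold changes of log2(FPKM + 1) with 95% confidence intervals for 5 members in the 5 comparisons, TREX1 being at 0 and not fitted. Filled points were called and dashed lines mark 1 in size. The IFI16 change is 2.85 with DAC in parental cells and −0.26 in resistant cells, and STING1 lies below −1 in both comparisons of resistant with parental cells.

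IFI16 and AIM2 neighbour the other PYHIN genes on chromosome 1, in the order MNDA (chr1:158831351-158849506), PYHIN1 (chr1:158930796-158977059), IFI16 and AIM2. Not all of the neighbours moved alike. MNDA, a myeloid nuclear protein, was at 22.7 and 21.5 FPKM in parental DMSO cells and 59.3 and 59.0 with DAC, and at 24.6 and 23.9 FPKM in resistant DMSO cells and 20.1 and 20.2 with DAC. It rose with DAC in parental cells (log2 fold change 1.38, adjusted p = 4.79e-07), and the difference between the DAC effects was −1.63 (adjusted p = 1.96e-06). Unlike for IFI16, the difference between resistant and parental cells in DMSO was small, 0.13 (adjusted p = 0.0171).

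PYHIN1 was at 2.22 and 2.01 FPKM in parental DMSO cells, 2.04 and 2.63 in parental DAC cells, 0.837 and 0.697 in resistant DMSO cells and 1.20 and 1.02 in resistant DAC cells. It had a log2 fold change of 0.09 with DAC in parental cells (adjusted p = 0.511) and was lower in resistant cells in DMSO by 0.82 (adjusted p = 0.00102), short of the fold of a call. With voom it was called lower in resistant cells at −1.46 in DMSO and −1.06 with DAC. PYHIN1 was chosen after its values were seen, to complete the cluster.

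**Figure D3:**
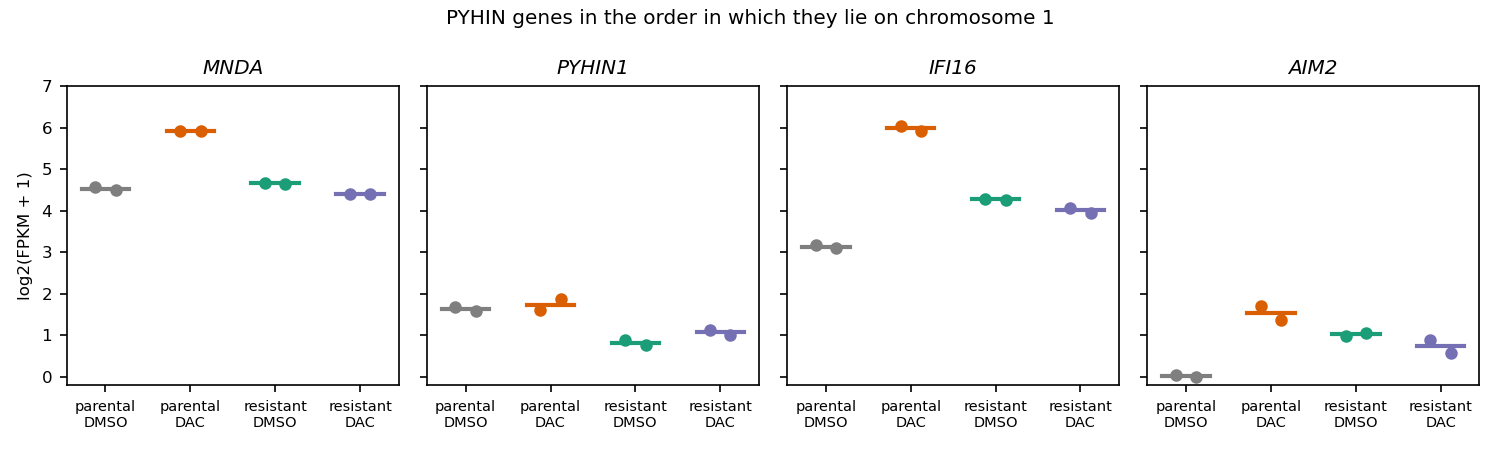
log2(FPKM + 1) of the 4 PYHIN genes in the order in which they lie on chromosome 1, with 2 libraries per group as points and their mean as a line. MNDA, IFI16 and AIM2 are highest in parental cells with DAC, and PYHIN1 is highest in parental cells with and without DAC.

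TREX1 (ENSG00000213689, chr3:48465811-48467645, plus strand), the cytosolic DNA exonuclease, was listed at 0 in all 8 libraries. All of its 1448 exon bases, in 4 blocks, are also exon bases of ATRIP (chr3:48446710-48467645), a gene of the replication checkpoint on the same strand. They make up 26.7% of the 5431 exon bases of ATRIP. Of 302 protein-coding genes whose every exon base lies in exons of other genes on the same strand, 189 (62.6%) were listed at 0 in all libraries, against 12% of 10700 without any such overlap. Of 13 covered in full by exons of other genes only on the opposite strand, 12 (92.3%) were listed at 0. The 0 of TREX1 therefore gives no level for this gene, and whether TREX1 differed between groups was not measured. ATRIP was at 2.21 and 2.53 FPKM in parental DMSO cells, 2.36 and 2.76 in parental DAC cells, 2.69 and 2.11 in resistant DMSO cells and 2.06 and 2.26 in resistant DAC cells. Parental and resistant cells with DAC did not overlap and the other groups compared did, and adjusted p ran from 0.213 to 0.956 over the 5 comparisons.

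**Figure D4:**
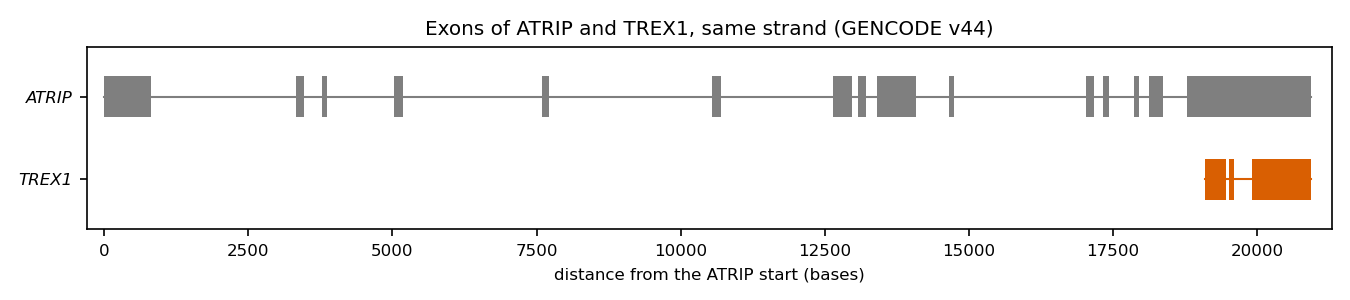
Exon blocks of ATRIP and TREX1 on the same strand (GENCODE v44), by distance in bases from the start of ATRIP. Boxes are exons and lines the extent of each gene. All 4 exon blocks of TREX1 lie inside the last exon block of ATRIP, and the first 2 merge at this scale.

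For each member whose group means spanned at least 1 on the log2 scale, the 3 tested genes with the most similar profile over the 8 libraries were found by the root mean square (RMS) difference of centred log2(FPKM + 1). For STING1 they were OPN3 (0.064), the long noncoding RNA LINC00649 (0.079) and GNAS (0.089), which encodes the stimulatory G protein α subunit. GNAS was at a mean of 31.3 FPKM in parental DMSO cells, 29.5 in parental DAC cells, 13.2 in resistant DMSO cells and 12.6 in resistant DAC cells. For IFI16 they were IFIT5 (0.063), an interferon-induced RNA-binding protein, the histone gene H2AC6 (0.107) and IER3 (0.173). IFIT5 was at 1.45, 16.0, 4.11 and 3.69 FPKM in the same order of groups. For AIM2 the RMS differences were larger: ELOVL4 (0.152), FBXO2 (0.164) and HYAL2 (0.166). CGAS spanned 0.653 and has none named.

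The genes around the members were taken from a list of 85 in 8 groups by role, of which 74 were tested, 9 were above 0 but under the filter and 2, IFNA1 and IFNL3, were listed at 0 in all libraries. With DAC in parental cells 10 of the 74 were called higher and 0 lower, where 6.66% and 2.64% of all genes tested were, with a median log2 fold change of 0.17 against 0.057 over all genes tested. The 10 include IL1B, which passed the filter only through parental DAC cells, where it was high. With DAC in resistant cells 0 were called in either direction by limma and 0 by voom, 31 having an unadjusted p under 0.05, which 27% of all genes tested had, with a median of −0.015 against 0.007. Of resistant against parental cells, 6 were called higher and 3 lower in DMSO, beside 4.45% and 4.28% of all genes tested (median 0 against 0.018). With DAC 1 was called higher and 12 lower, beside 5.29% and 9.17% (median −0.159 against −0.031). In the difference between the DAC effects 1 was called higher and 10 lower, beside 3.46% and 7.16% (median −0.21 against −0.053). IL1B is also in the counts of resistant against parental cells with DAC and of the difference. Both counts of resistant against parental cells hold IFNB1 and NLRC3, which passed the filter only through the cell type where they were high. The calls of these genes add no support to the counts.

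Of the 10 genes through which STING signals, 2 were called higher with DAC in parental cells, the kinase IKBKE and the transcription factor IRF7, beside 6.66% of all genes tested. IRF7, which drives later rounds of interferon transcription, went from 3.74 and 3.43 FPKM to 50.4 and 52.6 FPKM (log2 fold change 3.52, adjusted p = 1.38e-07). In resistant cells IRF7 was at 8.33 and 8.51 FPKM with DMSO and 5.36 and 4.76 FPKM with DAC. In DMSO its level in resistant cells was higher by 1.04 (adjusted p = 2.14e-05), a call lost at 0.99 without parental DMSO replicate 2 and at 0.96 with upper-quartile scaling. Its groups were fully apart in the same order as those of IFI16. IKBKE went from 9.97 and 8.83 to 21.4 and 23.3 FPKM in parental cells (1.17, adjusted p = 1.48e-05) and was between 7.70 and 8.16 FPKM in all resistant libraries.

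The direct partners of STING moved less. TBK1 was at 5.25 and 5.39 FPKM in parental DMSO cells and 7.97 and 7.95 with DAC (log2 fold change 0.50, adjusted p = 0.000133), and IRF3 differed by 0.42 there (adjusted p = 0.000307), both short of the fold of a call. In resistant cells the change with DAC was −0.02 for TBK1 (adjusted p = 0.833). For IRF3 it was −0.12 (95% confidence interval −0.231 to −0.01, unadjusted p = 0.0363, adjusted p = 0.153), with DMSO at 14.4 FPKM in both libraries and DAC at 12.9 and 13.4. NFKB1, an NF-κB subunit precursor, was lower in resistant than in parental cells, by 1.33 in DMSO (adjusted p = 1.64e-05) and by 1.66 with DAC (adjusted p = 3.54e-06).

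Among 14 genes of STING trafficking and control, 0 were called in either DAC comparison by limma or by voom. Of all genes tested, limma called 6.66% higher and 2.64% lower in parental cells, and 0.114% and 0.121% in resistant cells. A count of 0 among 14 is near that background. An unadjusted p under 0.05 in limma was found for 10 of the 14 in parental and 6 in resistant cells, beside 62.5% and 27% of all genes tested. SURF4, which returns STING to the endoplasmic reticulum, had a change of 0.72 in parental cells under DAC (adjusted p = 1.61e-05), while TMEM203 had an adjusted p from 0.212 to 0.96 over the 5 comparisons. STIM1, a calcium sensor that holds STING in the endoplasmic reticulum, had changes of −0.32 in parental cells under DAC (adjusted p = 0.00181) and 0.25 in resistant cells (adjusted p = 0.0264). RNF5, a ubiquitin ligase that marks STING for degradation, was at 41.7 and 48.8 FPKM in parental DMSO cells and 96.2 and 91.2 FPKM in resistant DMSO cells (log2 fold change 1.04, adjusted p = 3.28e-05). It lost the call at 0.93 without parental DMSO replicate 1, at 0.999 without resistant DMSO replicate 1 and at 0.94 with upper-quartile scaling. NLRC3, which restrains STING, fell by 1.45 in resistant cells in DMSO (adjusted p = 4.27e-05) and by 1.53 with DAC (adjusted p = 2.08e-05). It reached 1 FPKM only in parental libraries and so passed the filter through the groups where it was high. The NLRC3 calls therefore support nothing about this list. TRIM32, a ubiquitin ligase of STING, fell by 1.09 in resistant against parental cells with DAC (adjusted p = 0.000117), and lost the call at −0.98 without parental DAC replicate 1. In DMSO it was lower by 0.80 (adjusted p = 0.000694), short of a call that voom made.

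Of 8 tested genes that control cGAS or handle cGAMP, 1 was called higher and 0 lower with DAC in parental cells, beside 6.66% and 2.64% of all genes tested, a count near that background. ABCC1, an exporter of cGAMP, went from 5.60 and 6.08 to 17.8 and 17.9 FPKM (log2 fold change 1.46, adjusted p = 1.76e-06), and lay between 6.39 and 6.73 FPKM in the 4 resistant libraries. The cGAMP importer SLC19A1 was higher in resistant than in parental cells in DMSO by 0.81 (adjusted p = 8.88e-05), short of a call that voom made at 1.24. BANF1, which shields DNA from cGAS, stayed between 40.6 and 47.5 FPKM in all libraries. ENPP1, which degrades cGAMP, had at most 11 reads in any library.

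Of 9 tested nucleases and genes of dNTP control, the lysosomal DNase DNASE2 was called in 4 of the 5 comparisons and was the 1 gene of the 9 called higher with DAC in parental cells, beside 6.66% of all genes tested. It was at 15.5 and 12.9 FPKM in parental DMSO cells, 34.9 and 38.1 in parental DAC cells, 7.02 and 6.10 in resistant DMSO cells and 7.44 and 6.66 in resistant DAC cells. In parental cells it rose by 1.31 under DAC (adjusted p = 7.28e-05), and it was lower in resistant than in parental cells by 1.00 in DMSO (adjusted p = 0.00024) and by 2.22 with DAC (adjusted p = 4.15e-06). The call in DMSO was lost at −0.88 without parental DMSO replicate 1 and at −0.92 without resistant DMSO replicate 2. RNASEH2B, a subunit of ribonuclease H2, moved the other way and was the only pathway gene called higher in the difference between the DAC effects (1.09, adjusted p = 6.01e-05). Its change was −0.80 in parental cells (adjusted p = 3.05e-05) and 0.29 in resistant cells (adjusted p = 0.0194). SAMHD1, which hydrolyses dNTPs, had changes of 0.25 in parental cells under DAC (adjusted p = 0.000214) and −0.18 in resistant cells (adjusted p = 0.00827), and RNASEH2A had an adjusted p from 0.228 to 0.867 over the 5 comparisons.

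In the inflammasome group, 2 of 10 tested genes were called higher with DAC in parental cells, MNDA and IL1B, beside 6.66% of all genes tested. CASP1, the caspase of the inflammasome (0.74, adjusted p = 9.63e-06), and the pore protein gene GSDMD (0.63, adjusted p = 0.000131) were higher there by less than the fold of a call. The cytokine IL18, which caspase-1 also matures, was lower there by 0.80 (adjusted p = 0.000556), NLRP3 by 0.30 (adjusted p = 0.000933) and CASP4 by 0.21 (adjusted p = 0.0192), also short of a call and named after their values were seen. IL1B, the cytokine that caspase-1 matures, was at 0.377 and 0.427 FPKM in parental DMSO cells, 10.5 and 11.3 in parental DAC cells, 0.158 and 0.199 in resistant DMSO cells and 0.281 and 0.098 in resistant DAC cells (3.08 with DAC in parental cells, adjusted p = 1.80e-06). It reached 1 FPKM only in the 2 parental DAC libraries and so passed the filter through the group where it was high, and its 2 calls among these counts support nothing about the group. The adaptor gene PYCARD, which encodes ASC, did not differ detectably with DAC in parental cells (−0.22, adjusted p = 0.105) and was lower in resistant cells in DMSO by 0.74 (adjusted p = 0.000919), short of a call. With DAC, 4 of the 10 were called lower in resistant than in parental cells, beside 9.17% of all genes tested: MNDA, IL1B, CASP1 by 1.18 (adjusted p = 8.31e-07) and GSDMD by 1.36 (adjusted p = 2.59e-06). CASP1 has near-identical neighbours among the caspase genes, so its reads may be shared with them.

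Of the 7 genes of ZBP1 signalling, 2 were called higher with DAC in parental cells, beside 6.66% of all genes tested. The median of the 7 was 0.385 against 0.057 over all genes tested. MLKL, which makes the necroptotic pore, went from 3.39 and 2.86 to 8.98 and 9.44 FPKM (log2 fold change 1.31, adjusted p = 5.33e-05) and was between 1.43 and 1.89 FPKM in resistant libraries. ADAR, an RNA-editing enzyme that limits Z-RNA, went from 38.3 and 38.5 to 103 FPKM in both libraries (1.40, adjusted p = 1.02e-07). RIPK3, the kinase between ZBP1 and MLKL, was between 0.567 and 2.37 FPKM and was called in no comparison by limma, with a log2 fold change of −0.72 in resistant against parental cells with DAC (adjusted p = 0.013), where voom on recovered reads called it at −1.29. RIPK1 had a change of 0.46 in parental cells under DAC (adjusted p = 0.00511), short of the fold of a call. CASP8 was lower in resistant than in parental cells in DMSO by 0.90 (adjusted p = 2.95e-05), short of a call that voom made. Of the 10 tested genes among other proposed DNA sensors, 0 were called in any comparison by limma, and voom called 1, POLR3F, in resistant against parental cells with DAC. Over the 5 comparisons limma called 0.114% to 6.66% of all genes tested higher and 0.121% to 9.17% lower. In any single comparison 0 of 10 is near that background, and the share that voom called is not given here. In each comparison 7 or 8 of these 10 sensor genes had an unadjusted p under 0.05 in limma, beside 27% of all genes tested with DAC in resistant cells and 56% to 69.9% in the other comparisons. PRKDC, XRCC5 and XRCC6, which form the DNA-dependent protein kinase, differed by at most 0.25 in size in all 5 comparisons.

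The interferon and chemokine genes listed as output were not uniform. The activity of STING was not measured, so their levels are not a readout of the members. IFNB1, the interferon gene downstream of STING and IRF3, had 0 and 1 reads in parental DMSO cells, 7 and 12 in parental DAC cells, 46 and 51 in resistant DMSO cells and 51 and 60 in resistant DAC cells. All resistant libraries were thus above all parental ones. By reads, resistant cells in DMSO held 97.6-fold more than parental cells (97 against 1 reads, 95% counting interval 17.1 to 3900), and with DAC 5.13-fold more (3.14 to 8.85). The fitted log2 fold changes were 1.50 (adjusted p = 9.61e-05) and 1.15 (adjusted p = 0.000234), and the second had an unadjusted p of 0.0177 with a pseudocount of 0.01 and was then not called. IFNB1 reached 1 FPKM only in resistant libraries and so passed the filter through the groups where it was high. These calls therefore support nothing about the output genes as a group. Resistant cells with the higher IFNB1 were those with the lower STING1 and CGAS. With DAC in parental cells the reads were 21.4-fold those with DMSO (19 against 1 reads, 3.41 to 891). The fitted change of 0.47 there (adjusted p = 0.0179) was short of a call, which voom made at 3.66. The difference between the DAC effects on IFNB1 was −0.35 (adjusted p = 0.146) and was called by voom at −3.50.

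CXCL10, an interferon-induced chemokine, was at 1.10 and 0.814 FPKM in parental DMSO cells, 35.6 and 35.2 in parental DAC cells, 36.1 and 30.8 in resistant DMSO cells and 25.8 and 26.6 in resistant DAC cells. It rose with DAC in parental cells (4.22, adjusted p = 2.54e-07) and was higher in resistant than in parental cells in DMSO (4.14, adjusted p = 5.52e-07). TNF had the same pair of calls, 2.07 (adjusted p = 1.36e-07) and 2.00 (adjusted p = 2.34e-07). In resistant cells TNF was higher with DAC than with DMSO by 0.51 (adjusted p = 0.00115), at 51.1 and 49.9 against 35.3 and 35.0 FPKM, and CXCL10 had a change of −0.34 there (adjusted p = 0.0632), neither of them called. CCL5 was called in 1 comparison, higher in resistant cells in DMSO by 1.22 (adjusted p = 1.32e-06). These comparisons share the parental DMSO libraries.

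**Figure D5:**
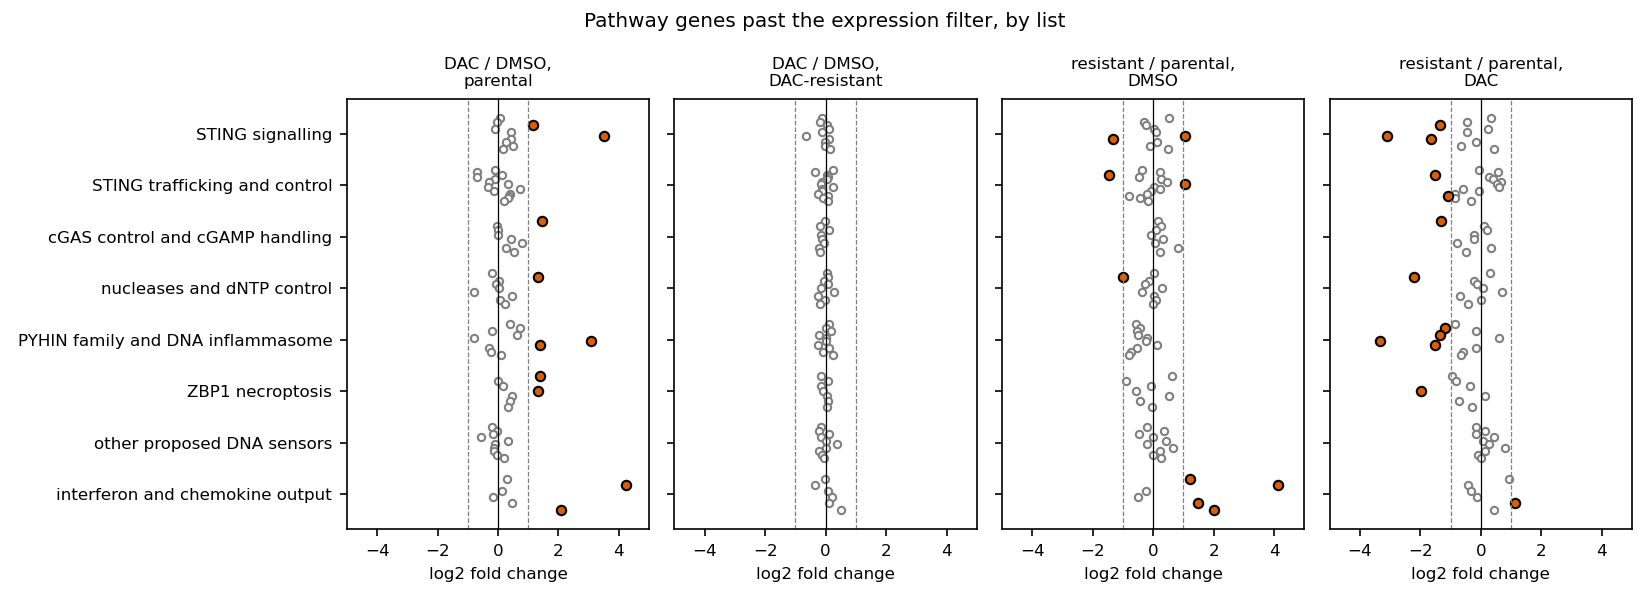
Log2 fold changes of the 74 tested pathway genes, 1 point per gene, by list and in 4 comparisons. Filled points were called and dashed lines mark 1 in size. With DAC, 10 points are filled to the right in parental cells and 0 in resistant cells.

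Promoter windows were found for 8 of the 10 pathway genes called higher with DAC in parental cells, and 3 of them (CXCL10, DNASE2 and MNDA) held the GAAANNGAA core. Of the 64 tested but not called there, 52 had a window and 9 held it, and of all 27305 genes with a window 9.86% did. Markers of other cell types were low but not even. Summed T cell markers were 3.59 to 3.79 FPKM in parental DAC cells, all but TRAC being under 1 FPKM, and at most 0.167 FPKM in the other groups. Summed fibroblast markers were 12.8 to 13.2 FPKM in parental DAC cells, 7.13 to 7.21 in resistant DMSO cells, 5.42 to 5.71 in resistant DAC cells and 0.755 to 0.839 in parental DMSO cells, which is also the order of the IFI16 levels. Summed plasma cell markers were 2.31 to 2.47 FPKM in parental DMSO cells and 6.19 to 7.54 FPKM in the other 3 groups, with MZB1 and TNFRSF17 under 1 FPKM in every group. Summed erythroid markers were lowest in parental DAC cells, at 2.20 to 3.30 FPKM against 4.12 to 7.00 FPKM elsewhere, and summed B cell markers were 3.73 to 4.97 FPKM in parental and 0.728 to 1.39 FPKM in resistant cells. COL1A2 and DCN were under 1 FPKM in every group. All libraries come from cultures of the THP-1 line, and these sums do not show that cells of other types were present, which was not tested.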

How the data were processed

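mRNA libraries of THP-1 cells, parental or resistant to DAC, were sequenced with and without the drug, 2 per group. By the study's methods and the submitters' processing notes, the authors trimmed reads with Cutadapt 1.9.1, aligned them to hg38 with HISAT2 2.1.0 and counted them on Ensembl genes with HTSeq 0.13.5. Whether counting used the strand is not given in the sources used here. The authors deposited FPKM values multiplied by 1000, which were divided by 1000. Whole reads behind the FPKM steps were recovered with GENCODE v44 exon lengths for 34961 of 39592 genes above 0 and from the steps alone for 4630, within 0.02 reads.

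Genes that reached 1 FPKM in 2 or more libraries entered a limma fit (3.58.1, R 4.3.3) of log2(FPKM + 1) on 4 group means, with a variance trend, 4 residual degrees of freedom and Benjamini-Hochberg adjustment over all 14899 genes. ZBP1 was taken from the fit without the filter. Calls used the thresholds of the study's volcano plots. With 2 against 2 libraries an exact permutation test cannot go below 0.333. Named genes were the 6 members, the pathway genes called, the first 3 of each list, and the 3 most similar profiles. Members and lists were chosen with earlier results of these data known. The fit was tested on simulated data. Alternatives were a pseudocount of 0.1, no filter, TPM, upper-quartile scaling, a replicate block, only the libraries compared, adjusted p, voom on recovered reads (at least 10 in all) and leaving out each library. A pseudocount of 0.01 was added after the data were seen.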

Additional observations from a re-analysis of the deposited data

Results flagged for a closer look

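The results below are flagged because the effect of DAC differed between parental and DAC-resistant cells by the limma test of the difference itself. Such calls were common, with 3.46% of all 14899 genes tested called higher and 7.16% lower in this difference. Values are the change with DAC in resistant cells minus that in parental cells, on the log2(FPKM + 1) scale, so that a negative value means that the change was less positive, or more negative, in resistant cells. Among the members the difference was −3.11 for IFI16 and −1.80 for AIM2. AIM2 passed the filter only through parental DAC cells, where it was high, so its value here is descriptive. Among the genes of STING signalling the difference was −4.15 for IRF7 and −1.11 for IKBKE. It was −1.48 for the cGAMP exporter ABCC1, −1.22 for the lysosomal nuclease DNASE2 and 1.09 for RNASEH2B, the only positive one. In the inflammasome and necroptosis groups it was −1.63 for MNDA, −3.08 for IL1B, −1.41 for MLKL and −1.57 for ADAR. IL1B too passed the filter only through parental DAC cells, where it was high, so its value is also descriptive. The chemokine gene CXCL10 had −4.56 and TNF −1.56. As group means, CXCL10 stood at 33.5 FPKM in resistant DMSO cells against 35.4 in parental DAC cells, and TNF at 35.2 against 37.1 FPKM.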

How the results depend on the processing

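Of 340 values of members under alternatives, 317 kept their direction and their side of the threshold, and 18 gained a call, all of them for AIM2 or ZBP1. The 5 that turned sign were differences between the DAC effects within the spread: STING1 at 0.001 with TPM and 0.058 with upper-quartile scaling, CGAS at 0.005 and 0.057, and CGAS between −0.149 and 0.059 when 1 of 8 libraries was left out, the highest without resistant DMSO replicate 2. Among pathway genes the calls of IRF7, RNF5 and DNASE2 in resistant against parental cells in DMSO, and of TRIM32 and IFNB1 with DAC, were lost under the settings named with them above, and all other named calls held.

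The 2 members called in resistant against parental cells with DAC became 4 with a pseudocount of 0.1 and 4 with voom. The pathway genes called in DMSO went from 9 to 14 with a pseudocount of 0.1, 15 with voom and 15 with a pseudocount of 0.01, and those called with DAC in resistant cells from 0 to 1 with a pseudocount of 0.1. The share of all genes called under these settings is not given here. The gains therefore show nothing particular to the members or the pathway genes. A replicate block changed no call in 78 results, with 2 and 10 members and pathway genes called with DAC in parental cells. Deviations of same-numbered libraries correlated between −0.022 and 0.02, so no deviation shared by number was seen across genes. Whether same-numbered cultures were handled together cannot be told from this. AIM2, ZBP1 and IFNB1 rest on few reads, which limits their fold changes.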
